A study of Mus musculus with 9 samples.

Results

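Hoxc13, Msx2, Lef1, Foxn1, Shh, Wnt10b, Dlx3, Gata3, Lgr5 and Fgf5 are transcription factors and signals of the hair cycle. They were listed by symbol, and a gene was measured where a transcript cluster of the array (a set of probes for one transcribed region) carried its symbol and no other. This gave 9 of the 10 genes, out of 30142 genes measured in all, each with 1 cluster. The cluster of Gata3 also carries a second gene symbol, so Gata3 was given no value. The arrays held neck skin of male C57BL/6 mice aged 6 to 8 weeks, with 3 arrays each of control skin, described as healthy, of skin challenged with oxazolone, a synthetic hapten, and of skin treated with urushiol, the oil in poison ivy that causes allergy. For sensitisation the abdomen was shaved and painted with 2.0% of the allergen. From 5 days later the shaved nape received 0.5% of it in 40 µl of acetone, 5 times up to day 8, and skin was taken 4 hours after the last challenge. For control mice, shaving and acetone on the nape are not stated in the labels, and their part in any difference from control cannot be told apart from that of the allergens. The series addresses immunity and itch in allergic contact dermatitis, and no label gives the hair cycle stage of any mouse.

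Hair follicles pass through growth (anagen), regression (catagen) and rest (telogen). In growth, Wnt signals act through LEF1 on the matrix cells at the base of the follicle, Sonic hedgehog drives their division, and the factors HOXC13, FOXN1, MSX2 and DLX3 act in the differentiating hair shaft and its sheaths. FGF5, made late in growth, is known as a signal that ends it, and LGR5 marks stem and progenitor cells of the lower follicle. Bulk skin holds follicles with epidermis, dermis, fat and the thin skin muscle, so more cells of a type and more RNA per cell cannot be told apart.

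Sequence before the start sites is shown for Lef1 and Msx2, which had the widest range over the arrays among the measured genes with an entry in the promoter table, and for Fgf5, whose call without control replicate 3 is described below. The table (RefSeq, build GRCm38.p6) had an entry for 6 of the 10 genes. Each line gives the 250 bases before a start site, 5′ to 3′ on the gene's strand. Capitals mark any match, on either strand, to the letters of 4 motifs: CTTTGA or CTTTGT for TCF/LEF factors, TAATTA or TAATTG for homeodomain factors such as MSX2 and DLX3, AGATAA for GATA factors and GACCACCCA for GLI factors, the effectors of Hedgehog signalling. Msx2 is chr13:53472781-53473030 on the minus strand. Lef1 is on the plus strand, with the window of its first start site at chr3:131110047-131110296 and that of start site 4 at chr3:131156044-131156293, which begins 45997 bases further on. Fgf5 is chr5:98253934-98254183 on the plus strand.
Msx2: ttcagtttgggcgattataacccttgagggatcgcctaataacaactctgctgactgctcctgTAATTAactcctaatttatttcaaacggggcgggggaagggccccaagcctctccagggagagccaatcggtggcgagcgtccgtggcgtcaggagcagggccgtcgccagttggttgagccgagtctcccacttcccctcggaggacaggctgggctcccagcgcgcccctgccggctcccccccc
Lef1 start site 1: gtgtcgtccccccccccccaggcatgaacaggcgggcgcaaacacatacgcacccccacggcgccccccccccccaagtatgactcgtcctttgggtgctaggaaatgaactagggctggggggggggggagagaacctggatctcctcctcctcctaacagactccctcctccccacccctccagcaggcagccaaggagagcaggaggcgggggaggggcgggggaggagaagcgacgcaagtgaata
Lef1 start site 4: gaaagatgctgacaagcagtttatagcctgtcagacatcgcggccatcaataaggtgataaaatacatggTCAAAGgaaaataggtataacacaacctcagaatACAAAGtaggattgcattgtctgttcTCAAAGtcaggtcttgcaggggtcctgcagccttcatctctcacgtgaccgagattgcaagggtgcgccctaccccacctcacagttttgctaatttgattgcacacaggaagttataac
Fgf5: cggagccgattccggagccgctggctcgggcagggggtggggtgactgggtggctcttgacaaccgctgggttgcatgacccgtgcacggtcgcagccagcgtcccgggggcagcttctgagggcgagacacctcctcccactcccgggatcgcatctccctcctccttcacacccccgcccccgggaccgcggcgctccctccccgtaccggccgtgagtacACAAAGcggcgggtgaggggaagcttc
Of the 4 start sites listed for Lef1, site 4 had 3 TCF/LEF matches and sites 1, 2 and 3 had 0 matches to any of the motifs. Fgf5 had 1 TCF/LEF match, and Msx2 had 1 homeodomain match. Foxn1 had 1 homeodomain match too, and Wnt10b and Gata3 had 0 matches to any of the motifs. Among 32851 windows of this length in the table, 27.6% held a TCF/LEF match, 11.3% a homeodomain match, 9.99% a GATA match and 0.225% a GLI match. A match is a string of letters and was not tested as a binding site.

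Measured values are log2 expression, listed below in the order replicate 1, 2 and 3 of each group. Shh, the ligand of the Hedgehog pathway, lay at 5.82, 5.99 and 7.92 on the control arrays, at 6.85, 8.07 and 7.38 on the oxazolone arrays and at 6.04, 6.74 and 7.25 on the urushiol arrays. Control replicate 3 was higher than 5 of the 6 challenged arrays, and control replicates 1 and 2 were below all 6, the second of them only just below urushiol replicate 1. Wnt10b, a Wnt ligand of the growing follicle, spanned only 0.64 log2 units, with 5.21, 5.31 and 5.44 in control skin, 5.40, 5.85 and 5.39 after oxazolone and 5.32, 5.39 and 5.39 after urushiol. It lay below the median of all clusters of its array on 8 of 9 arrays, and oxazolone replicate 2 stood above the rest. Fgf5 had 5.70, 5.34 and 6.61 in control skin, 6.15, 6.70 and 6.38 after oxazolone and 6.15, 6.34 and 6.15 after urushiol. Its 6 challenged values fell within 0.55 log2 units of each other, and control replicate 3 sat among them. Lgr5, the receptor for R-spondins, had 8.06, 7.90 and 9.85 in control skin, 8.60, 10.12 and 9.53 after oxazolone and 8.12, 9.12 and 9.11 after urushiol. Control replicate 3 was again second only to oxazolone replicate 2.

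Lef1, the DNA-binding partner of beta-catenin, and the homeobox genes Dlx3 and Msx2 spanned the most, at 4.91, 5.20 and 4.12 log2 units over the 9 arrays. Lef1 lay at 5.69, 6.01 and 9.28 in control skin, at 7.92, 10.60 and 8.98 after oxazolone and at 6.96, 7.94 and 8.43 after urushiol. Dlx3 lay at 7.03, 8.01 and 11.36 in control skin, at 9.01, 12.23 and 10.53 after oxazolone and at 8.52, 9.86 and 9.98 after urushiol. The range within the control group, 3.59 log2 units for Lef1 and 4.33 for Dlx3, was wider than within either challenged group. Msx2 lay at 5.48, 5.85 and 8.63 in control skin, at 7.35, 9.60 and 8.01 after oxazolone and at 6.35, 7.37 and 7.52 after urushiol. Hoxc13, a homeobox gene that acts on hair keratin genes, lay at 6.70, 7.24 and 8.92, at 8.11, 9.91 and 8.73, and at 7.28, 8.11 and 8.11 in the same order of groups. Both repeat the order of arrays seen for Lef1 at its ends, with control replicate 1 lowest and oxazolone replicate 2 highest. Foxn1, the forkhead gene of the nude mouse, lay at 6.45, 6.36 and 7.40 in control skin, at 7.16, 8.24 and 7.43 after oxazolone and at 7.25, 7.25 and 7.38 after urushiol. Its urushiol arrays were within 0.13 log2 units of each other and lay just below control replicate 3.

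**Figure D1:**
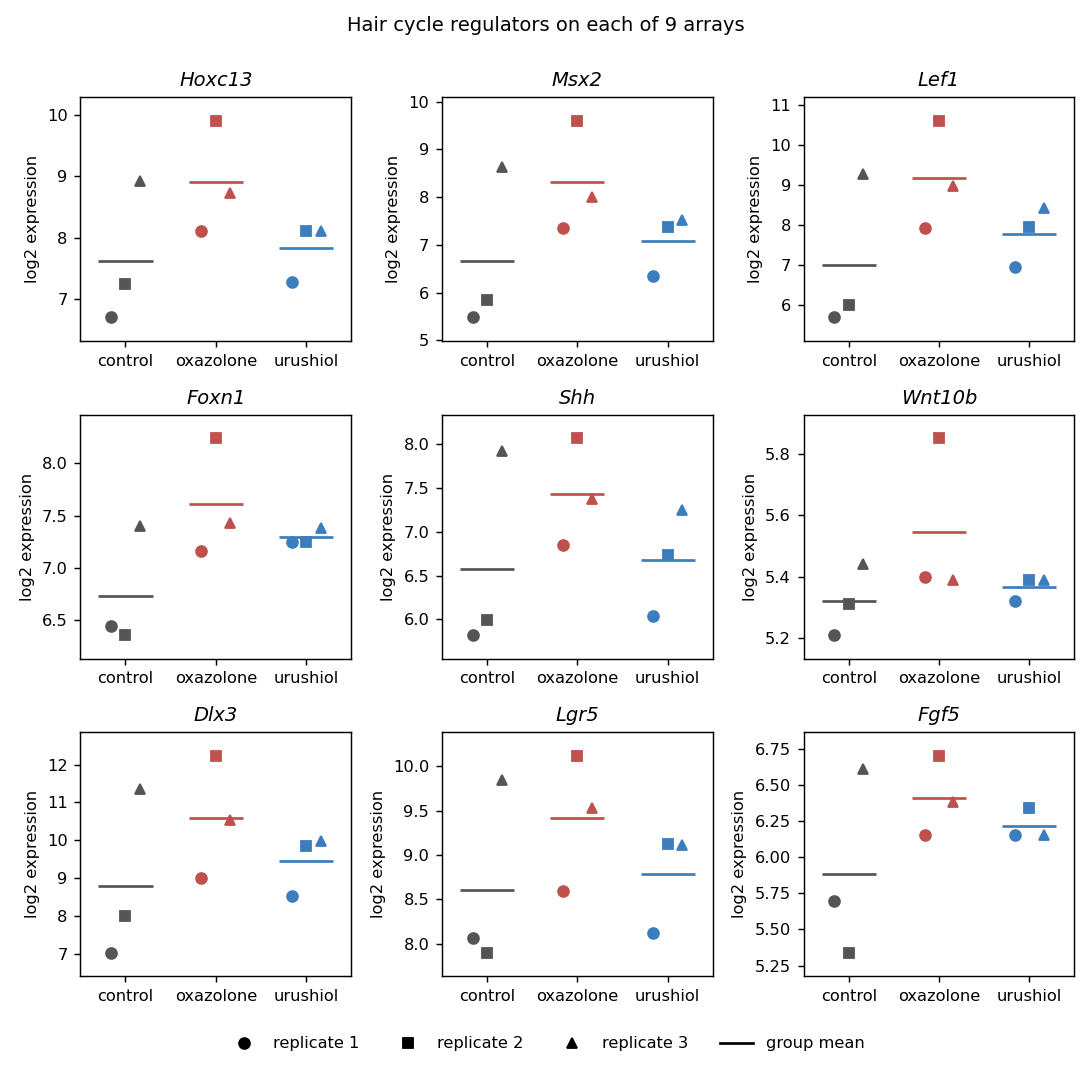
Log2 expression of the 9 measured hair cycle regulators (vertical axes, which differ between panels) by group on the horizontal axis; each marker is 1 array, its shape gives the replicate number and horizontal lines are group means of 3 arrays. In every panel control replicate 3 stands above the other 2 control arrays and oxazolone replicate 2 is the highest of the 9 arrays.

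The 9 genes shared their highest array and part of the order below it. The lowest array was control replicate 2 for Foxn1, Lgr5 and Fgf5 and control replicate 1 for the others. Oxazolone replicate 2 was the highest of all 9 arrays for 9 of 9 genes, against 15.8% of all genes, and urushiol replicate 1 was the lowest of the 6 challenged arrays, or tied for it, for 8 of 9, against 24.4%. Foxn1 was the exception. After each gene was set to a mean of 0 over the arrays, the mean of the 9 genes was -1.28, -1.08 and 0.86 on the control arrays, -0.13, 1.51 and 0.52 on the oxazolone arrays and -0.63, 0.05 and 0.18 on the urushiol arrays. Within the control and oxazolone groups these means spread over more than the distance between the group means of the 2 allergens.

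In oxazolone-challenged skin the mean of each of the 9 genes lay above that of control skin, but the arrays of the groups overlapped for all 9 and none passed the test. Lef1, Dlx3, Msx2 and Hoxc13 differed by 2.17 ± 1.09, 1.79 ± 1.25, 1.67 ± 0.94 and 1.30 ± 0.67 log2 units (± standard error, n = 3 arrays per group), with adjusted p = 0.205, 0.356, 0.256 and 0.219 by limma with Benjamini-Hochberg adjustment. Foxn1 differed by 0.87 ± 0.35 (95% interval 0.05 to 1.70, adjusted p = 0.128), and it was the 1 gene of 9 with an unadjusted p under 0.05, against 34.1% of all genes. Shh, Lgr5, Fgf5 and Wnt10b stood at 0.86, 0.81, 0.53 and 0.23, with adjusted p between 0.258 and 0.399. The threshold of 0.05 was passed by 0 of the 9, against 9.63% of all genes called higher and 6.92% called lower (7.06% and 9.74% after quantile renormalisation), and the arrays of 0 of 9 lay wholly above or below the control arrays, against 21.3% and 11.5% of all genes. Intervals were wide: that of Dlx3 ran from -1.15 to 4.73. Control replicate 3 was the highest control array for all 9 genes and was singled out from these values, so leaving it out raises each difference by construction, and the calls that follow describe how far the result depends on that array. Without control replicate 3, 5 of the 9 were called higher and 0 lower, against 15.8% and 10.8% of all genes: Lef1 at 3.32 ± 0.81 (adjusted p = 0.0273), Msx2 at 2.66 ± 0.69 (adjusted p = 0.0347), Hoxc13 at 1.95 ± 0.56 (adjusted p = 0.0466), Foxn1 at 1.21 ± 0.30 (adjusted p = 0.0285) and Fgf5 at 0.89 ± 0.18 (adjusted p = 0.0151). Shh, Dlx3, Lgr5 and Wnt10b stood at 1.53, 3.07, 1.44 and 0.29 in that fit, with adjusted p = 0.0522, 0.0648, 0.086 and 0.211. Other arrays moved the values the other way. Without oxazolone replicate 2, Lef1 stood at 1.46, Msx2 at 1.03, Hoxc13 at 0.80, Foxn1 at 0.56, Lgr5 at 0.46 and Wnt10b at 0.08. Without control replicate 1 Dlx3 stood at 0.91 and Shh at 0.48, and without control replicate 2 Fgf5 stood at 0.26. With 3 arrays in each group the smallest p that an exact permutation test can give is 0.1.

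In urushiol-challenged skin the means of all 9 genes were again above control, by less than 1 log2 unit each. Lef1 stood at 0.78 ± 1.09, Dlx3 at 0.65 ± 1.25, Foxn1 at 0.56 ± 0.35 and Msx2 at 0.43 ± 0.94, with adjusted p = 0.684, 0.781, 0.328 and 0.815. Fgf5, Hoxc13, Lgr5, Shh and Wnt10b stood at 0.33, 0.21, 0.18, 0.10 and 0.05, with adjusted p of at least 0.527. By limma 0 of 9 passed, 0 of 9 had an unadjusted p under 0.05, against 32.2% of all genes, and the arrays of 0 of 9 lay wholly above or below the control arrays, against 21.1% and 11.8%. Of all genes 9.96% were called higher and 6.43% lower (7.62% and 7.77% after quantile renormalisation). Leaving out control replicate 3 gave 1 gene of 9 higher and 0 lower, against 15.1% and 10.2% of all genes: Fgf5 stood at 0.69 ± 0.18 (adjusted p = 0.0371). Lef1 stood at 1.93 (adjusted p = 0.15) and Foxn1 at 0.89 (adjusted p = 0.0806) in that fit. The comparisons of the 2 allergens with control share the control arrays.

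**Figure D2:**
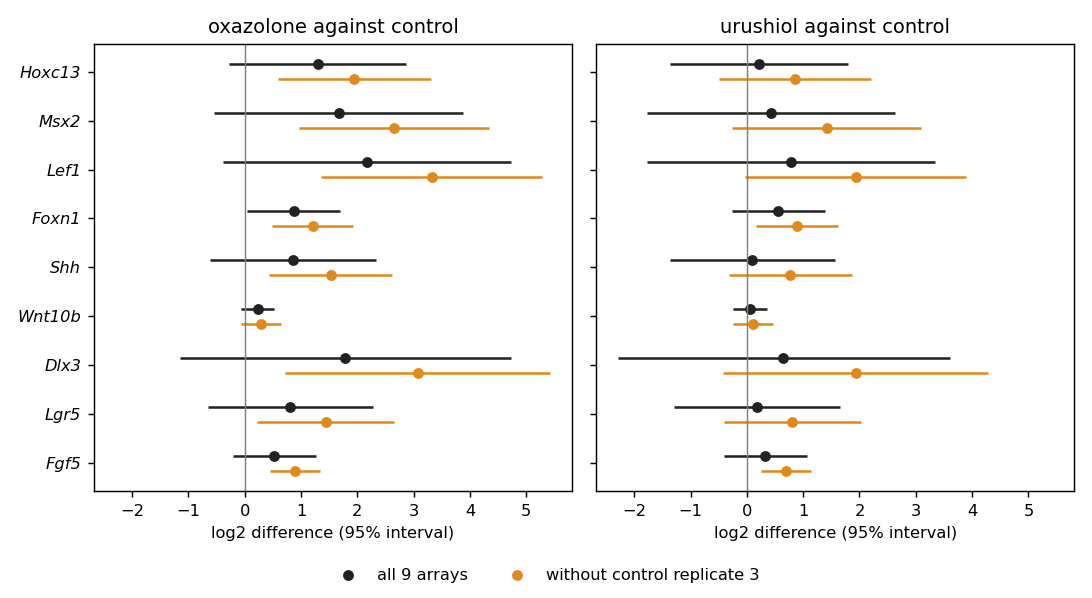
Log2 difference of each gene (horizontal axes) between oxazolone (left) or urushiol (right) and control skin, with points for the fitted difference and bars for its 95% interval, from the fit of all 9 arrays (black) and without control replicate 3 (orange). Every point lies further right without control replicate 3, for Lef1 after oxazolone at 3.32 in place of 2.17.

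Between the allergens, each of the 9 means was lower after urushiol than after oxazolone, and none of these differences passed. Lef1 differed by -1.39 ± 1.09, Msx2 by -1.24 ± 0.94, Dlx3 by -1.14 ± 1.25 and Hoxc13 by -1.08 ± 0.67, and the lowest adjusted p of the 9 was 0.983. The 95% intervals ran from -3.94 to 1.16 for Lef1 and from -2.66 to 0.49 for Hoxc13. The 3 groups share 1 estimate of the spread, so the control arrays enter these intervals. Without control replicate 3 they ran from -3.14 to 0.36 and from -2.29 to 0.12. The arrays of the 2 allergens overlapped for all 9 genes, whereas 5.35% of all genes lay wholly higher and 4.39% wholly lower after urushiol, and 0 of 9 had an unadjusted p under 0.05, against 5.88% of all genes. Of the 9, 0 were called with or without control replicate 3, and across all genes 0.00664% were called higher and 0.00995% lower after urushiol, or 0.0232% and 0% without that array. Arrays of the same number were also set side by side, a pairing that the labels do not state. The urushiol array was lower in all 3 pairs for 6 of the 9 genes, Hoxc13, Msx2, Lef1, Shh, Dlx3 and Lgr5. Lef1 stood at -0.96, -2.66 and -0.55. The share of all genes lower in all 3 pairs was not counted, so no conclusion is drawn from this count. With the replicate number as a block in a fit of these 2 groups alone, 2 of 9 had an unadjusted p under 0.05, against 8.95% of all genes. These were Lgr5 at -0.63 ± 0.15 (limma, unadjusted p = 0.024, adjusted p = 0.481) and Hoxc13 at -1.08 ± 0.29 (limma, unadjusted p = 0.0336, adjusted p = 0.517), and 0 of 9 were called. Without oxazolone replicate 2, which was the highest array of its group throughout, the difference of Dlx3 was -0.32 and that of Lef1 -0.67.

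Control replicate 3 was compared with the other controls by description alone, since it is 1 array and was singled out from its values. It was above both other control arrays for 9 of 9 genes, against 36.9% of all genes. The distance from the mean of control replicates 1 and 2 was 3.84 log2 units for Dlx3, 3.43 for Lef1, 2.97 for Msx2, 2.02 for Shh, 1.95 for Hoxc13, 1.87 for Lgr5, 1.09 for Fgf5, 0.995 for Foxn1 and 0.18 for Wnt10b. Control replicates 1 and 2 themselves differed by 0.09 to 0.98 log2 units on these genes. The distance reached 1 log2 unit upward for 7 of 9 genes, against 2.52% of all genes, and downward for 0 of 9, against 2.88%. For all 9 genes control replicates 1 and 2 lay below all 6 challenged arrays while control replicate 3 lay inside their range, and 9.56% of all genes had controls 1 and 2 below the challenged arrays and control 3 not below them.

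**Figure D3:**
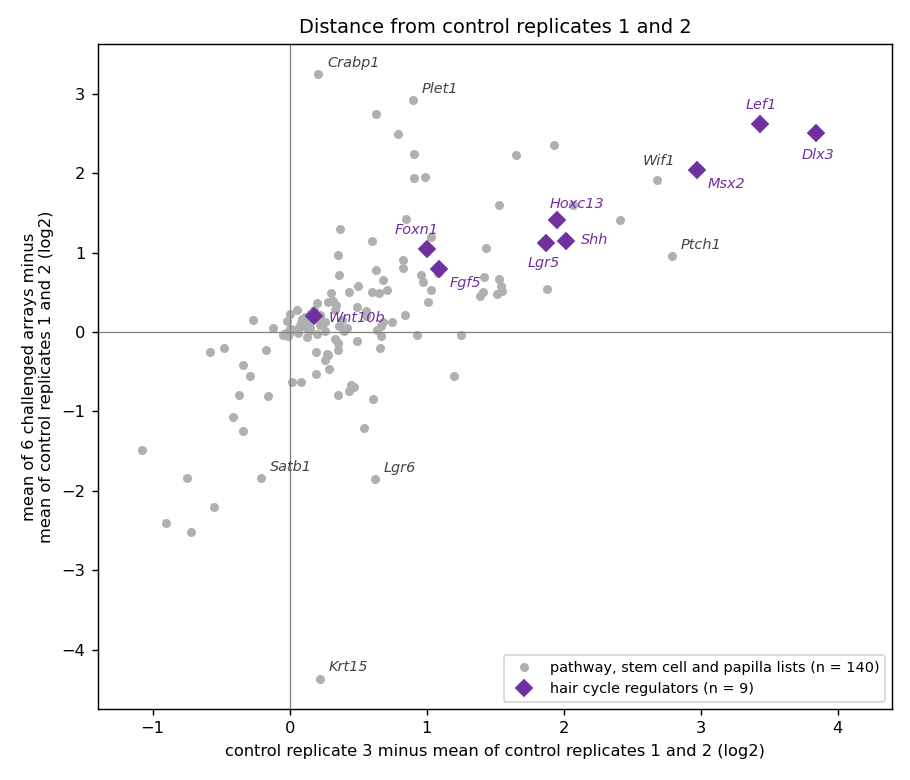
Distance of control replicate 3 (horizontal) and of the mean of the 6 challenged arrays (vertical) from the mean of control replicates 1 and 2, in log2 units, 1 point per gene, for the 9 hair cycle regulators (purple diamonds) and genes of the pathway, stem cell and dermal papilla lists (grey). Both axes subtract the same 2 arrays, so the points share that baseline; the regulators other than Wnt10b, which is near the origin, lie to the upper right, Dlx3 at 3.84 and Lef1 at 3.43 on the horizontal axis, whereas Krt15 lies far below 0 on the vertical axis and close to 0 on the horizontal one.

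Of 14 measured Hedgehog pathway genes of 15 listed, 0 rose, and 2 fell after oxazolone and 3 after urushiol, with medians of 0.05 and 0.02 beside 0.06 and 0.04 over all genes. Cdon and Boc, co-receptors for hedgehog ligands, and Disp1, which releases the ligand, were the ones that fell. Cdon fell by 2.42 ± 0.35 after oxazolone (adjusted p = 0.00666) and 1.78 ± 0.35 after urushiol (adjusted p = 0.0176). Disp1 fell by 0.93 ± 0.15 and 0.92 ± 0.15, and Boc fell by 0.77 ± 0.18 after urushiol and stood at -0.49 after oxazolone (adjusted p = 0.104). The falls of Cdon and Boc after urushiol each depended on single arrays, being lost on leaving out any of 4 arrays for Cdon and 5 for Boc, with adjusted p up to 0.0669 (urushiol replicate 1) and 0.0904 (control replicate 2). Control replicate 3 stood at least 1 log2 unit above the mean of the other controls for 5 of the 14 genes, Ptch1, Hhip, Gli1, Smo and Gli2, named here after their values were seen. The median distance over the 14 was 0.17, and Cdon and Disp1 stood at -0.90 and -0.41. Ptch1, Gli1 and Hhip are known as genes that hedgehog signalling switches on. Ptch1 lay at 8.85, 9.14 and 11.78 on the control arrays, at 9.69, 10.82 and 10.25 after oxazolone and at 8.90, 9.84 and 10.19 after urushiol, so control replicate 3 was above every challenged array. Gli1 gave the same picture, with 6.77, 6.50 and 8.14 in control skin, 7.08 to 7.58 after oxazolone and 6.61 to 7.08 after urushiol. Hhip did not. It read 6.06, 6.05 and 8.46 in control skin, and oxazolone replicate 2, at 8.85, was above control replicate 3. Without control replicate 3 no Hedgehog gene rose after oxazolone and 1 rose after urushiol, against 15.8% and 15.1% of all genes. With all 9 arrays, 9.63% of all genes rose and 6.92% fell after oxazolone, and 9.96% and 6.43% after urushiol. Counts of this list and of those below are to be read beside these shares.

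Of 15 Wnt and R-spondin ligands, 1 fell after oxazolone, and 1 rose and 2 fell after urushiol, with medians of 0.10 and -0.01. Wnt3 fell by 0.81 ± 0.14 after oxazolone and 1.01 ± 0.14 after urushiol, with its control arrays at 7.27, 7.28 and 7.62 and its challenged arrays between 6.19 and 6.71. Rspo3 fell by 0.94 ± 0.22 and Wnt4 rose by 0.45 ± 0.12 after urushiol, both lost without 7 and 8 arrays taken singly (adjusted p up to 0.0931 and 0.137, both without control replicate 2), and that of Wnt4 also after median centring. Wnt5a, a ligand of the non-canonical Wnt branch, stood at 0.98 ± 0.33 after oxazolone (adjusted p = 0.0813) and 0.72 ± 0.33 after urushiol (adjusted p = 0.179), and passed without control replicate 3 at 1.33 (adjusted p = 0.00985) and 1.07 (adjusted p = 0.0221). Of 16 measured receptors, transducers and targets of 19 listed, 1 fell after oxazolone and 2 after urushiol, and 0 rose, with medians of -0.02 and -0.32 beside 0.06 and 0.04 over all genes. Lgr6, a relative of Lgr5, fell by 1.96 ± 0.18 and 2.15 ± 0.18. Its arrays read 8.54, 8.68 and 9.23 in control skin and 6.59 to 7.01 after challenge, without overlap. Those of Lgr5 overlapped. Its challenged arrays lay above control replicates 1 and 2, but control replicate 3, at 9.85, was above 5 of the 6. Lgr5 was not called after either allergen (adjusted p = 0.399 and 0.895). Axin2, a common target of Wnt signalling, fell by 0.76 ± 0.16 after urushiol and stood at -0.54 ± 0.16 after oxazolone (adjusted p = 0.057). The urushiol call was lost without control replicate 2 (adjusted p = 0.0755) or urushiol replicate 3. Fzd6, a Wnt receptor, stood at 0.53 and 0.73 (adjusted p = 0.187 and 0.0929).

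Of 14 measured Wnt inhibitors 4 fell after each allergen and 0 rose, with medians of -0.11 and -0.02. Dkk2, named after its values were seen, fell by 0.86 ± 0.12 after oxazolone and 0.64 ± 0.12 after urushiol. Sfrp4, Sfrp2 and Frzb, secreted Frizzled-related proteins, fell by 2.13 ± 0.46, 1.47 ± 0.33 and 1.11 ± 0.30 after oxazolone and by 1.90 ± 0.46, 1.31 ± 0.33 and 1.15 ± 0.30 after urushiol. Their calls were lost without 2, 4 and 8 arrays taken singly after oxazolone, with adjusted p up to 0.0807 (oxazolone replicate 3), 0.0848 and 0.126 (control replicate 1). After urushiol they were lost without 7, 8 and 8, with adjusted p up to 0.0945 (urushiol replicate 2), 0.124 and 0.131 (urushiol replicate 1), and that of Dkk2 without 4, up to 0.056 (control replicate 1). Wif1, an inhibitor made in the dermal papilla, was named after its values were seen, as the gene nearest in pattern to Msx2. It followed the hair cycle regulators instead. It read 6.96, 6.57 and 9.44 on the control arrays, 8.30, 10.37 and 9.20 after oxazolone and 7.37, 8.09 and 8.77 after urushiol. It stood at 1.63 ± 0.86 after oxazolone (adjusted p = 0.228), and without control replicate 3 at 2.53 (adjusted p = 0.0347). In that fit 2 of the 14 inhibitors rose and 4 fell after oxazolone, against 15.8% and 10.8% of all genes. After urushiol 0 rose and 3 fell, against 15.1% and 10.2%. Sostdc1 was also high on control replicate 3, at 11.02 against 9.62 and 8.66, but read 9.09 on oxazolone replicate 2.

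BMP and FGF signals hold the follicle at rest or adjust its growth. Of 19 measured BMP pathway genes 1 rose after each allergen. Smad7, an inhibitory SMAD, rose by 0.72 ± 0.15 after oxazolone and Id1, a BMP target, by 1.32 ± 0.32 after urushiol, lost without 3 and 7 arrays taken singly (adjusted p up to 0.076 without control replicate 2 and 0.112 without urushiol replicate 1). Bambi, a decoy receptor, stood at 2.46 ± 0.87 after oxazolone (adjusted p = 0.0944) and Bmp7 at 1.28 ± 0.46 after urushiol (adjusted p = 0.105). Without control replicate 3, Bambi passed after oxazolone at 3.11 (adjusted p = 0.0444). In that fit 6 of the 19 genes rose after oxazolone and 4 after urushiol, against 15.8% and 15.1% of all genes. Bambi shared the high value of oxazolone replicate 2, at 10.03 against 6.93 and 8.50 on the other oxazolone arrays. Of 17 FGF pathway genes 2 rose and 1 fell after oxazolone, and 1 rose and 1 fell after urushiol. Fgf18, known for keeping follicles at rest, fell by 1.05 ± 0.10 and 1.21 ± 0.10, from 8.00, 8.02 and 7.67 in control skin to 6.75 to 6.92 after oxazolone and 6.64 to 6.73 after urushiol. Fgf5, a ligand of the same family, had its challenged arrays above control replicates 1 and 2, but control replicate 3 was above 5 of the 6. Unlike Fgf18, it was not called in the fit of all 9 arrays (adjusted p = 0.278 and 0.527). Dusp6, a feedback phosphatase of the ERK pathway, rose by 2.23 ± 0.48 and 2.25 ± 0.48, each call lost without 4 arrays taken singly (adjusted p up to 0.0793 without oxazolone replicate 3 and 0.0814 without urushiol replicate 1). Fgf7 rose by 0.71 ± 0.19 after oxazolone, a call lost without 7 arrays (up to 0.133 without control replicate 2) and after quantile renormalisation. Fgfr2, the receptor for FGF7 in epithelium, stood at -0.94 and -0.97 (adjusted p = 0.125 and 0.122).

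Among 28 measured other transcription factors and ectodysplasin pathway genes of the follicle, 2 rose and 2 fell after oxazolone, and 4 rose and 2 fell after urushiol. Runx1 rose by 1.81 ± 0.25 and 1.46 ± 0.25, and Ovol1, a factor of epidermal differentiation, by 1.54 ± 0.32 and 2.33 ± 0.32. The urushiol call of Runx1 was lost in a fit of the 2 groups alone (adjusted p = 0.0543). The oxazolone call of Ovol1 was lost without 4 arrays taken singly (adjusted p up to 0.0709 without oxazolone replicate 3). Dlx5 and Prdm1 rose by 0.73 ± 0.17 and 1.74 ± 0.42 after urushiol, each lost without 6 arrays (up to 0.0979 and 0.107, both without urushiol replicate 1). Satb1, a chromatin organiser, fell by 1.58 ± 0.10 and 1.95 ± 0.10, with control arrays at 8.60, 8.76 and 8.47 and challenged arrays between 6.60 and 7.11. Nfatc1, a factor of bulge stem cells, fell by 1.61 ± 0.28 and 1.55 ± 0.28, the second lost without urushiol replicate 1 (adjusted p = 0.0524). Control replicate 3 was at least 1 log2 unit above the other controls for 7 of the 28. Without it, 7 of the 28 rose after oxazolone and 6 after urushiol, against 15.8% and 15.1% of all genes.

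Of 14 follicle stem cell markers, 4 rose and 4 fell after oxazolone, and 3 rose and 4 fell after urushiol. Krt15, a keratin of the bulge that basal epidermis also makes, fell by 4.17 ± 0.27 and 4.70 ± 0.27, from 14.91, 14.54 and 14.94 in control skin to 10.51 to 10.81 after oxazolone and 9.59 to 10.69 after urushiol. Cd34, of the bulge and also of dermal and vessel cells, fell by 2.34 ± 0.31 and 2.22 ± 0.31. Lgr6 and Nfatc1 were the other falls. Plet1 rose by 2.94 ± 0.35 and 2.30 ± 0.35 and Postn, a matrix protein also made by fibroblasts, by 2.39 ± 0.32 and 2.67 ± 0.32. Itga6 rose by 1.0 ± 0.22 and 1.34 ± 0.22, the first lost without 5 arrays taken singly (adjusted p up to 0.0875 without control replicate 1) and after quantile renormalisation, and Cd200 by 1.11 ± 0.20 after oxazolone, a call lost in a fit of the 2 groups alone (adjusted p = 0.0585). On Krt15, control replicate 3 lay with the other controls, 0.22 log2 units above their mean. Of 15 dermal papilla markers 3 rose after oxazolone, and 1 rose and 1 fell after urushiol. Crabp1, a retinoic acid binding protein, rose by 3.18 ± 0.75 and 3.17 ± 0.75 and Vcan, which encodes versican, by 2.01 ± 0.45 after oxazolone, each lost without 6 arrays taken singly (up to 0.105 and 0.107 without control replicate 2, and 0.0872 without control replicate 1). Fgf7 and Rspo3, given above, were the other calls. Bmp4 stood at -0.79 and -1.31 (adjusted p = 0.341 and 0.142).

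Lists of other cells and structures were read beside the regulators on the same arrays. The mean of 23 hair shaft and inner root sheath genes was 6.23 and 6.26 on control replicates 1 and 2, 10.60 on control replicate 3, 10.48, 13.04 and 11.47 after oxazolone and 10.10, 10.60 and 10.16 after urushiol. Melanocyte markers (8 genes) averaged 6.25, 6.23 and 8.70 in control skin, 8.15, 10.55 and 8.97 after oxazolone and 7.27, 7.94 and 8.10 after urushiol. Both list means repeat control replicate 3 above the other controls and oxazolone replicate 2 at the top, but some genes differed. Dsc2 and Krt84 were highest on urushiol replicate 1, and Gsdma3 on oxazolone replicate 3. For Krt84 and the melanocyte gene Mitf, control replicate 3 was not above both other controls. Cell division markers (17 genes) averaged 7.66, 7.28 and 9.41 in control skin and 9.47 to 9.76 on the 6 challenged arrays, so oxazolone replicate 2, at 9.64, did not stand out there. Skeletal muscle markers (15 genes) went the other way on control replicate 3, with 17.65, 17.67 and 15.23 in control skin, 7.01 to 8.97 after oxazolone and 11.10 to 11.85 after urushiol. Interfollicular epidermis markers (10 genes) averaged 14.56, 14.52 and 15.15 in control skin, 13.72 to 14.38 after oxazolone and 13.76 to 14.06 after urushiol. Control replicate 3 was the highest control array here too, and after challenge the list had members on both sides. Of the 10, 2 rose and 3 fell after oxazolone and 3 rose and 3 fell after urushiol, and the median difference was 0.23 in both. Krt77, an epidermal keratin named after its values were seen, had the largest fall of the 10, by 8.11 ± 1.05 after oxazolone, whereas Krt14, a keratin of basal cells, rose by 2.53 ± 0.30, and Krt2 read 4.49 to 4.64 on all arrays. Fibroblast markers (7 genes) averaged 14.93 to 15.19, 13.29 to 14.36 and 13.69 to 14.66. Krt16 and Krt17, keratins of stressed epidermis, the second also of the follicle, averaged 10.34, 11.05 and 12.59 in control skin and 16.47 to 17.39 after challenge. T cell and innate lymphoid markers (13 genes) averaged 6.70 to 6.78 in control skin, 6.83 to 7.74 after oxazolone and 6.72 to 6.91 after urushiol. In the fit of all 9 arrays 3 of the 23 hair shaft and sheath genes rose after oxazolone, Dsc2, Krt84 and Lap3. After urushiol 2 rose, Dsc2 and Krt84. For Dsc2, Krt84 and Lap3 control replicate 3 stood 0.80, 0.16 and 2.22 log2 units above the mean of the other controls, against a list median of 3.66. Without control replicate 3 the counts were 22 and 17. Of the 17 cell division markers 2 rose after each allergen, or 17 after each without that array, and of the 8 melanocyte markers 0 rose, or 4 and 2. Of the 15 muscle markers 15 fell after oxazolone and 14 after urushiol. The part of any of these lists in the values of the 9 regulators was not tested.

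**Figure D4:**
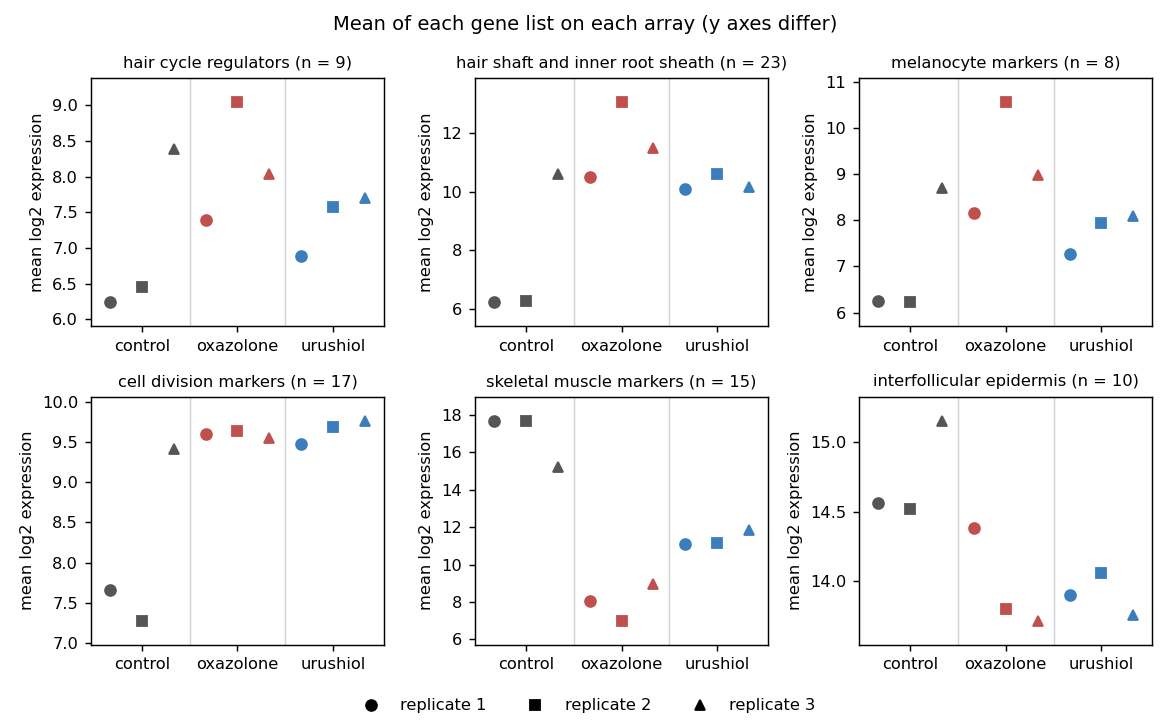
Mean log2 expression of the measured genes of 6 lists (vertical axes, which differ) on each of the 9 arrays, ordered by group on the horizontal axis; colours give the group and shapes the replicate number. Control replicate 3 lies above the other controls in every panel except muscle, where it lies below them. It stands at 8.38 against 6.24 and 6.45 for the regulators and at 15.15 against 14.56 and 14.52 for interfollicular epidermis.

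Genes with the pattern most like each regulator were found by the root mean square difference over the 9 arrays, after each gene was set to a mean of 0, among 20493 genes without predicted ones, for the 6 regulators that spanned at least 2 log2 units. Lef1, Dlx3 and Msx2 lay close to each other, with Msx2 0.286 and Dlx3 0.301 log2 units from Lef1, among its 3 nearest genes. Padi3, an enzyme of the hair follicle that converts arginine to citrulline in proteins and a member of the hair shaft list above, was between them at 0.297. Wif1 was the gene nearest to Msx2 at 0.253, ahead of Lef1 and of Slc24a5, a melanosome transporter gene, at 0.296. Nearest to Dlx3 after Lef1 and Msx2 (0.394) was Slc7a8, an amino acid transporter gene, at 0.415. Shh and Lgr5 shared Bnc2, a zinc finger gene, as the nearest, at 0.159 and 0.142, and lay 0.187 from each other. The others were Slc16a7, a monocarboxylate transporter gene, at 0.167 from Shh and Fads2, a fatty acid desaturase gene, at 0.202 from Lgr5. Nearest to Hoxc13 were Slc40a1, the iron exporter gene, at 0.173, Slc16a7 at 0.208 and the cadherin gene Cdh6 at 0.222. These distances describe 9 arrays that share the control replicate 3 and oxazolone replicate 2 highs, and they carry no test.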

How the data were processed

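Total RNA of neck skin was measured on 9 Affymetrix arrays, and sample titles gave the group and number of each array. Values were deposited as log2 expression per transcript cluster. The submitters' processing notes list Affymetrix Expression Console 1.4, RMA and Transcriptome Analysis Console, without saying which did what, and a genome build was not given in the sources used here. The log2 values run from 2.20 to 19.93, above 16, the highest log2 reading a 16-bit scanner can give, by a step not given, so a log2 difference may not be a log2 ratio of RNA. All values of the 9 regulators lie below that limit.

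Of 72688 features, 6732 array controls were left out. The platform annotation gave 1 symbol to 30604 clusters, several to 2146 and none to 33206. Symbols of 827 clusters were updated through the gene ID to RefSeq, and the cluster with the highest mean stood for its gene. Arrays carry no depth, so their number limits the precision. No detection calls were used, and a value was called dim below its array's median over all clusters, 5.53 to 5.64.

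Differences were tested by two-sided moderated statistics (lmFit, then eBayes) of limma 3.58.1, run in R 4.3.3 on all 9 arrays together. They were adjusted by Benjamini-Hochberg over 30142 genes at a threshold of 0.05. The fit was also run on simulated data whose spread came from the challenged arrays alone, so that run does not cover the spread among control arrays. Adjusted p values in the text are limma's. The labels call the replicates biological, and nothing further says that they were separate animals, so p values measure the spread between these samples. The genes and lists were chosen with earlier results of these data known. From each pathway, stem cell and papilla list the 3 genes with the highest mean absolute difference against control were named, and others where the text says so or where they complete a short count. List members were counted as called or not, without a list test. Deviations of same-numbered oxazolone and urushiol arrays had correlations of 0.201, 0.197 and 0.124, against -0.18 to 0.021 for different numbers in these groups. Control replicate 3 with oxazolone replicate 2, of different numbers, reached 0.285, so such values cannot establish a pairing, and the labels state none. The differences given are from the fit without a block, and the blocked fit of these 2 groups stands beside the comparison of the allergens. Same-numbered pairs with control arrays ran from -0.232 to 0.337 and were not taken as paired. Alternatives were the mean of a gene's clusters, no dim genes, quantile renormalisation, median centring, a variance trend, 2 groups alone, a block by replicate number, and leaving out each array.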

Additional observations from a re-analysis of the deposited data

How the results depend on the processing

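No regulator was called in any comparison under the mean of a gene's clusters, without dim genes (which left 8 of the 9), quantile renormalisation, median centring, a variance trend or 2 groups alone. With the replicate number as a block, on all 9 arrays or on 2 groups alone, 0 of 9 were called in each comparison, so the block changed no call of a regulator. Leaving out 1 array gave 0 to 5 regulators higher after oxazolone and 0 to 1 after urushiol, each above 0 only without control replicate 3, and 0 to 0 lower or called between allergens. Without both control replicate 3 and oxazolone replicate 2, 4 of 9 rose after oxazolone and 2 after urushiol, against 13.7% and 14.6% of all genes. That alternative was chosen after seeing the data. The sign of an uncalled urushiol difference turned on leaving out single arrays for Hoxc13 (-0.25 to 0.86), Msx2 (-0.16 to 1.42), Shh (-0.28 to 0.77), Wnt10b (-0.01 to 0.11), Dlx3 (-0.23 to 1.93) and Lgr5 (-0.17 to 0.80), and for Wnt10b after median centring (-0.01). Of all genes, 2904 were higher and 2085 lower after oxazolone, 1262 and 936 with 2 groups alone, 464 and 244 with a replicate block besides, and 1102 to 4749 and 974 to 3270 on leaving out 1 array. After urushiol it was 3003 and 1939, then 1449 and 875, 1 and 4, and 1326 to 4566 and 863 to 3089. Between allergens 2 were higher and 3 lower, 4 and 31 without dim genes, 0 and 0 with a block, and 0 to 7 and 0 to 91 on leaving out 1 array. Of 51 calls of named list genes, 26 held on leaving out each array in turn, 23 were lost with 2 groups alone, 41 with a replicate block besides (Runx1 and Ovol1 after urushiol among them), 6 with a replicate block on all 9 arrays (Sfrp2, Wnt4 and Dlx5 after urushiol, Fgf7 after oxazolone and Frzb after both), and 3 after a change of scaling (Wnt4, Fgf7 and Itga6). The causes were not tested.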

Other observations

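The deposited values, given to 2 decimals, often repeat exactly across arrays. Of 30142 genes, 14400 (47.8%) had the same value on at least 3 of the 9 arrays, and in 99.3% of those the repeated value was the gene's own median over the 9 arrays. Among 2828 genes that spanned at least 2 log2 units it was 4.35%. Hoxc13 read 8.11 on oxazolone replicate 1 and urushiol replicates 2 and 3, Wnt10b read 5.39 on oxazolone replicate 3 and urushiol replicates 2 and 3, and Fgf5 read 6.15 on oxazolone replicate 1 and urushiol replicates 1 and 3, each its own median. Foxn1 read 7.25, its median, on urushiol replicates 1 and 2. In the 122 widely spanning genes with such a repeat at the median, urushiol replicate 3 was among the repeated arrays in 67.2% and control replicate 1 in 3.28%. These repeats enter the small standard deviations of the urushiol group for Foxn1 (0.08), Fgf5 (0.11) and Wnt10b (0.04), and the step that gives them was not tested.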
